A study of Mus musculus with 5480 samples.

Results

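The cells described here are the alveolar fibroblasts of the young mouse lung at postnatal day 21 (P21). They are the cells that carry the authors' label Alveolar fibroblast among the P21 samples, 250 cells of the 835 taken at that age and of 5480 in the whole series. The female mouse gave 181 of them and the male mouse 69, and no cell of another age carries that label. The study followed lung mesenchyme, the connective tissue with its muscle and vessel-wall cells, through birth and under neonatal hyperoxia. A female and a male mouse were taken at each of 4 ages in normal air, namely day 18.5 of gestation (E18.5) and days 1 (P1), 7 (P7) and 21 after birth, and a further pair was taken at P7 under hyperoxia. The labels name no transgene, and the mouse strain is not given in the sources used here. All cells came from distal lung and were sequenced in plates, 1 cell to a well, in libraries made with Tn5, a transposase that cuts DNA and attaches sequencing adapters.

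Alveolar fibroblasts lie in the walls of the air sacs, next to the gas-exchange epithelium. They include the lipid-laden lipofibroblasts, store vitamin A as retinyl ester, and send growth signals such as Wnt2 and Fgf10 to the epithelium. Adventitial fibroblasts, their nearest relatives, sheathe the larger vessels and airways and make most of the fibrillar collagen. The other P21 subtypes compared were 238 adventitial fibroblasts, 145 pericytes (which wrap capillaries), 113 airway smooth muscle cells and 52 vascular smooth muscle cells.

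Reads were summed over the cells of each subtype in each mouse, which gave 10 libraries of 20677737 to 152702638 reads. Levels are given as CPM, reads scaled to a common library size after TMM normalization, for the female mouse first and the male mouse second. The alveolar libraries held 151395302 and 59586820 reads. Fewer genes were detected per cell in the male mouse in all 5 subtypes. In alveolar fibroblasts the female median of 3106 genes compared with a male median of 1538, and the medians were 2572 and 1107 at an equal depth of 100000 randomly kept reads per cell, with 5 and 2 shallower cells left out. Over all reads, the medians were 3904 and 2676 in adventitial fibroblasts, 2792 and 1886 in pericytes, 2596 and 1907 in vascular smooth muscle and 2395 and 2096 in airway smooth muscle. Alveolar fibroblasts made up 34.5% of the female's P21 cells (95% Wilson interval 30.6 to 38.7) and 22.2% of the male's (17.9 to 27.1). The intervals cover counting error only, and these are single mice. Since the authors drew the subtype names from the expression of these same cells, differences between subtypes are described below with no p-value.

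The class was taken by the authors' label, and the 5 markers used for it here were all present. Inmt, an enzyme that methylates indoles and other amines, stood at 15440 and 23420 CPM in alveolar fibroblasts and at 2854 and 4668 CPM in adventitial fibroblasts. Npnt, nephronectin, a basement membrane ligand of the integrin alpha-8 chain, stood at 3627 and 2947 CPM, against 51.3 and 54.2 CPM in adventitial fibroblasts and 476 and 303 CPM in pericytes. In both mice the alveolar level of either gene was above that of every other subtype.

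Pdgfra, a receptor for platelet-derived growth factor, was at 973 and 1046 CPM, against 358 and 422 CPM in adventitial fibroblasts and at most 14.3 CPM in the 3 muscle and pericyte subtypes. Col13a1, a transmembrane collagen, was at 251 and 186 CPM and did not exceed 11.4 CPM elsewhere. Tcf21, a bHLH transcription factor of lung mesenchyme, was at 509 and 239 CPM, but pericytes had 204 and 141 CPM and adventitial fibroblasts 138 and 149 CPM. Tcf21 was thus the least restricted of the 5, and in the male mouse it was under 2-fold above its level in 2 other subtypes.

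**Figure D1:**
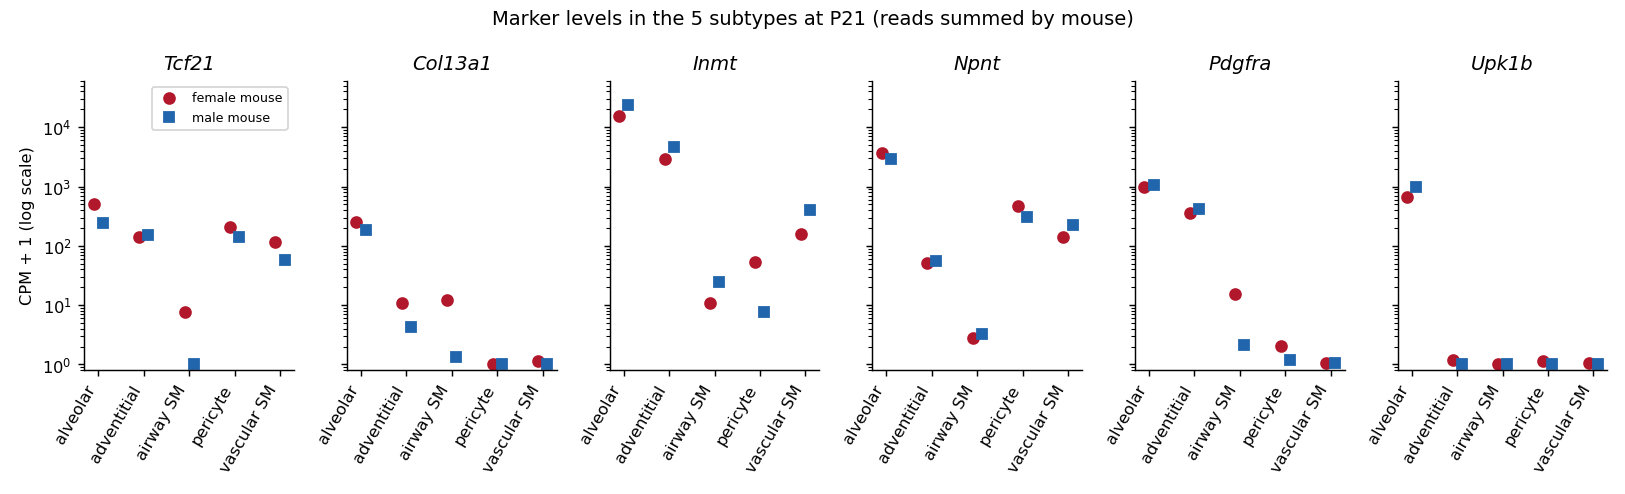
Level (CPM + 1, log scale) of the 5 alveolar fibroblast markers and of Upk1b in the 5 subtypes at P21, 1 point per mouse (reads summed over cells). Npnt, Col13a1, Pdgfra, Inmt and Upk1b are highest in alveolar fibroblasts of both mice by at least 2-fold. Tcf21, at 509 and 239 CPM against 204 and 141 CPM in pericytes, is under 2-fold above pericytes in the male mouse only.

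Single cells showed the same order with overlap between both kinds of fibroblast. At least 4 of the 5 markers reached 10 CPM in 79.0% of female and 55.1% of male alveolar cells, against 19.6% and 12.9% of adventitial cells and at most 1.43% in any other subtype. All 5 did so in 94 of 181 female and 19 of 69 male alveolar cells, and in 3 of 153 and 2 of 85 adventitial cells. The share of cells with a read for Col13a1 was 71.8% and 43.5% in alveolar cells, and that for Inmt was 100% and 98.5%. The lower male shares go with the lower number of genes detected in male cells, and its part in them was not tested.

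**Figure D2:**
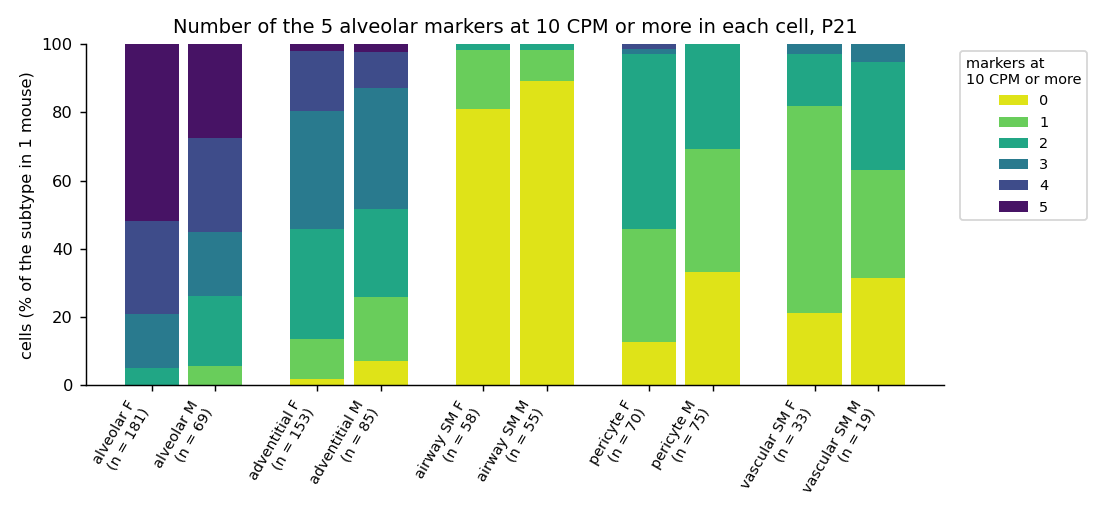
Share of cells (%) in which 0, 1, 2, 3, 4 or 5 of the alveolar markers reached 10 CPM, for each subtype in the female (F) and male (M) mouse at P21, with the number of cells. Cells with 4 or 5 markers make up 79.0% and 55.1% of alveolar fibroblasts and 19.6% and 12.9% of adventitial fibroblasts.

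A gene was counted as alveolar-high where its level (CPM + 1) was at least 2-fold above each of the other 4 subtypes in both mice and reached 10 CPM in alveolar cells of both. Of 14437 genes tested, 182 met this rule (1.26%). In the reverse direction, 30 genes were at least 2-fold below each of the other 4 subtypes in both mice while reaching 10 CPM in all of those (0.208%). Among cells with at least 1000 detected genes, a restriction chosen after seeing the data, 177 genes were alveolar-high, 162 of which were also among the 182. Both counts rest on the demand that the 2 mice go the same way: the female mouse alone gave 387 alveolar-high and 109 alveolar-low genes and the male mouse alone 869 and 388, and with no minimum level 69 genes were alveolar-low.

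Upk1b, a tetraspanin known from the urothelium, led the alveolar-high genes. It was at 671 and 987 CPM in alveolar fibroblasts, at most 0.18 CPM in any other library, and had a read in 71.8% and 52.2% of alveolar cells. No read was found in airway smooth muscle of either mouse, so the alveolar level was at least 25850-fold higher than 3 reads over both mice allow there. Upk1b therefore separated the 2 alveolar libraries from the other 8 more widely than any of the 5 markers, with a smallest fold of 569.8.

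Several of the 20 leading genes encode channels, receptors or transporters. Scn3a, a voltage-gated sodium channel subunit, was at 289 and 538 CPM and did not exceed 5.00 CPM elsewhere. Slc7a10, a transporter of small neutral amino acids, was at 496 and 808 CPM, and its highest other value was 18.6 CPM in male vascular smooth muscle. Adrb3, a beta-adrenergic receptor best known from adipocytes, was at 99.2 and 86.7 CPM and under 1 CPM in every other library.

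The potassium channel subunit Kcnk13 was at 60.5 and 45.8 CPM, and the gap junction protein gene Gja5 at 147 and 37.6 CPM. Ano5, of the anoctamin family, was at 18.2 and 22.7 CPM, and Prkg2, a cGMP-dependent protein kinase, at 150.0 and 133 CPM. Each of these 4 stood below 10 CPM in all 8 libraries of the other subtypes. Cpa3, a carboxypeptidase best known from mast cells, was at 41.5 and 40.9 CPM, with a read in 47.0% of female and 17.4% of male alveolar cells. The 11 immune markers together came to 33.1 and 44.9 CPM in alveolar libraries, 9 of them under 1 CPM in both mice, and their part in the Cpa3 level was not tested.

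Further leading genes belong to the cell surface, the cytoskeleton and metabolism. Scube2, a secreted protein that carries hedgehog ligands, was at 1013 and 1251 CPM, with at most 50.1 CPM elsewhere. Gyg, glycogenin, the primer of glycogen synthesis, was at 1978 and 2220 CPM, against 12.9 to 133 CPM in the other 8 libraries. The other leading genes were Cass4, Prom1, Afap1l1, Fat3 and the complement component C6. Of these, Prom1 (84.1 and 256 CPM) and Fat3 (41.5 and 140 CPM) differed most between both mice, and all 5 were at most 1.57 CPM in every other library.

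**Figure D3:**
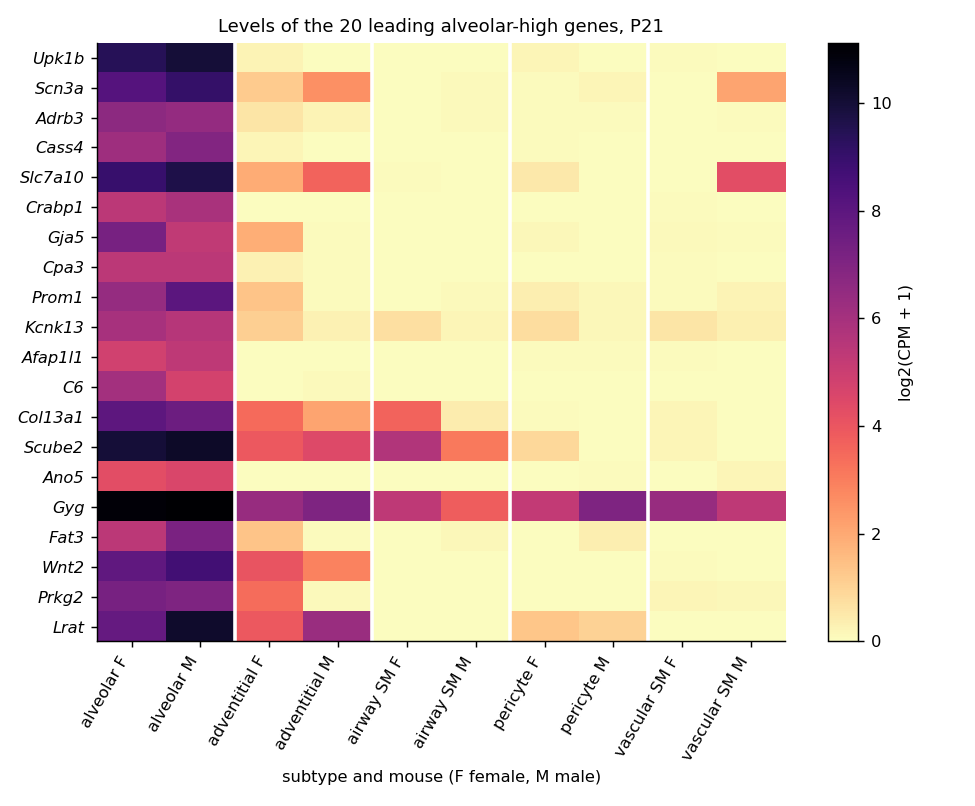
Level, as log2(CPM + 1), of the 20 alveolar-high genes with the largest smallest fold (rows), in each subtype of the female (F) and male (M) mouse at P21 (columns). The 2 alveolar columns are the darkest in every row, and Gyg is the gene with the highest levels outside alveolar fibroblasts (12.9 to 133 CPM).

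Per kilobase of exon, the scale on which genes can be compared with each other, Inmt (9650 and 14640 CPM per kilobase), Mgp, the matrix Gla protein that inhibits calcification (7942 and 16270), and the microfibril-associated Mfap4 (7905 and 12590) were the highest of the named genes in alveolar fibroblasts. Ribosomal protein genes, mitochondrially encoded genes, genes with Gm numbers and genes without a single exon length were left out of this ranking. A transcript listed as CT010467.1 exceeded Inmt, Mgp and Mfap4 at 63090 and 33720 CPM per kilobase. It took 16.2% of the reads of the joined alveolar library of the female P21 mouse and 7.52% of the male's, and between 5.77% and 12.9% in the other 8 mice. Its reads count in every CPM denominator.

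For 124 of the 182 alveolar-high genes the RefSeq promoter table (build GRCm38.p6) holds an entry. The submitters' notes name another build, so these windows come from the reference alone. Within 250 bases before the start site, on either strand, the E-box CAGCTG, a motif bound by bHLH factors, was present in 16.1% of the 124 and in 14.7% of all 27025 genes in the table. CAGATG was present in 10.5% and 16.3%, and TATAAA in 13.7% and 14.3%. These shares were near those of all genes, and the motif letters were chosen after seeing the data. The windows of 3 alveolar-high genes are shown because they differ in these motifs: Inmt holds 1 CAGCTG, 14 bases before the start, and 2 TATAAA, C7 holds 2 CAGCTG and, on the opposite strand, 1 TATAAA, and Col13a1 holds 1 TATAAA and no CAGCTG. Capitals mark both motifs, the second as its reverse complement where it lies on the opposite strand, and each window is written 5′ to 3′ on the strand of its gene, the minus strand for all 3.
Inmt (chr6:55174991-55175240): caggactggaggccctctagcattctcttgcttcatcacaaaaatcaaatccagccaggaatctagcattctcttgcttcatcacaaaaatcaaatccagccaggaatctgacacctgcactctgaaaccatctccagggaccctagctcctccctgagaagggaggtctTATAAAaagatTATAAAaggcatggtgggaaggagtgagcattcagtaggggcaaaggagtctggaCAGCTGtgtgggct
C7 (chr15:5063774-5064023): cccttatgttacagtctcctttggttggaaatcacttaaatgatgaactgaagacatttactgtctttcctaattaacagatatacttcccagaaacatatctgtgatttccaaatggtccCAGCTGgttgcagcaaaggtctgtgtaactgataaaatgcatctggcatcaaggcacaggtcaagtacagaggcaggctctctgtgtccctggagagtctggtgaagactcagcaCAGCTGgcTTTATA
Col13a1 (chr10:61979109-61979358): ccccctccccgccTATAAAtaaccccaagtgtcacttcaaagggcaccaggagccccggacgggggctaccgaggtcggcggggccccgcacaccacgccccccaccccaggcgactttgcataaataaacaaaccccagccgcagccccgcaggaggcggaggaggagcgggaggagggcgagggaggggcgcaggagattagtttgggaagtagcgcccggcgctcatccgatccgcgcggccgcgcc

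Lists of genes by function, 28 in all, placed these differences. For each list the count of alveolar-high genes can be read against 1.26% of all genes, and its median log2 difference from the mean of the other 4 subtypes against 0.19 over all genes. That mean is taken over log2 levels, so a subtype with almost no reads pulls it down strongly. Counts of genes at least 4-fold above or below adventitial fibroblasts in both mice can be read against 1.7% and 2.19% of all genes, and median differences from adventitial fibroblasts against -0.07. Of 24 further genes known from alveolar fibroblasts, 13 were alveolar-high, 0 were alveolar-low, and the median was 4.64. They included the actin-binding Limch1 (5284 and 6359 CPM), the giant cytoskeletal linker Macf1 (4294 and 5931 CPM, with at most 320 CPM elsewhere), Mfap4, Spon1, Ces1d and the integrin chain Itga8. This list and the 5 markers are known from the cell type, so that their direction here is no independent evidence. Gdf10 went against the list, with 30.6 and 15.2 CPM in alveolar and 241 and 380 CPM in adventitial fibroblasts. Enpp2, on the same list, was at 42.4 and 22.5 CPM, against 3944 and 3955 CPM in airway smooth muscle.

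Lipid genes were mixed. Of 22 tested, 5 were alveolar-high, with a list median of 1.36. Plin2, the coat protein of lipid droplets, was at 218 and 347 CPM, against 56.3 and 83.6 CPM in adventitial fibroblasts. The triglyceride enzymes Dgat2 (26.6 and 21.4 CPM) and Lipe (46.0 and 51.5 CPM) and the fatty acid transporter Slc27a6 (26.7 and 13.0 CPM) were alveolar-high at low levels. The carboxylesterase Ces1d had a mean of 1154 CPM (SD 217, n = 2), and no other library exceeded 161 CPM.

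Other known lipid genes were not alveolar-high. Lpl, lipoprotein lipase, was at 174 and 302 CPM, below adventitial fibroblasts at 446 and 721 CPM. Pparg, the adipogenic nuclear receptor, had a read in 4.97% and 5.80% of alveolar cells, at 14.4 and 0.64 CPM. Fabp1 had no read in any of the 10 libraries, and Fabp4 was at 0.38 and 0.055 CPM.

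Of 18 retinoid genes, 3 were alveolar-high (Lrat, Crabp1 and Aldh1a1), and the list median was 2.06. Lrat, which esterifies retinol for storage, was at 213 and 1149 CPM in alveolar fibroblasts, at 14.1 and 78.7 CPM in adventitial fibroblasts and without a read in both kinds of smooth muscle. The female and male levels of Lrat lay far apart, and in each mouse the alveolar level was over 14-fold the adventitial one. Crabp1, a retinoic acid-binding protein, was at 41.6 and 57.7 CPM and at most 0.043 CPM elsewhere.

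Of the retinaldehyde dehydrogenases, which make retinoic acid, Aldh1a1 was alveolar-high at 695 and 1141 CPM. Aldh1a2 was at 0.0063 and 0 CPM in alveolar and 98.5 and 190 CPM in adventitial fibroblasts, and Aldh1a3 at 0.013 and 0.018 CPM against 32.3 and 10.8 CPM. The retinol dehydrogenase Adh7 and the carrier Rbp4 were also over 4-fold below adventitial fibroblasts, while Adh1 was shared at 2283 and 3846 CPM, against 1499 and 3222 CPM. In all, 3 of the 18 were over 4-fold above and 4 over 4-fold below adventitial fibroblasts, with a median difference of -0.53.

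Among secreted signals, Wnt2, a ligand of lung epithelium, was at 238 and 414 CPM, 15.6 and 6.34 CPM in adventitial fibroblasts and under 0.05 CPM elsewhere. Rspo4 was the other alveolar-high gene of 24 in the Wnt list (median 0.22), at 11.6 and 122 CPM. Lgr5, a receptor for R-spondins, and Wif1, a Wnt inhibitor, were over 4-fold below adventitial fibroblasts, at no more than 0.16 CPM. Wnt5a, highest in airway smooth muscle at 817 and 540 CPM, was at 51.2 and 39.2 CPM.

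Of 14 FGF genes, 3 were alveolar-high, with a list median of 1.96. The ligand Fgf10 was at 156 and 167 CPM, against 60.2 and 37.3 CPM in adventitial fibroblasts. The receptor Fgfr3 was at 585 and 493 CPM, and Fgfr4, at 151 and 80.0 CPM, was at most 46.0 CPM elsewhere.

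In the BMP and TGF-beta list, 1 of 29 genes was alveolar-high, Bmper, an extracellular BMP modulator (130.4 and 117 CPM, median of the list 0.78). The ligands Bmp3 (478 and 395 CPM) and Bmp5 (144 and 186 CPM) were over 4-fold above adventitial fibroblasts, but Bmp5 was higher still in airway smooth muscle (218 and 274 CPM). Fst, an activin antagonist, was low at 0.46 and 0.055 CPM.

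The 2 receptors for platelet-derived growth factor lay at opposite ends. Pdgfra was alveolar-high and Pdgfrb alveolar-low, at 15.0 and 5.13 CPM, against 84.9 to 2809 CPM in the other 8 libraries. The log2 difference of Pdgfra from the mean log2 level of the other subtypes was 8.68 (SE 0.68) and that of Pdgfrb -5.52 (SE 0.56). Of the other growth factor and vessel genes, Kitl was over 4-fold above adventitial fibroblasts (103 and 292 CPM), and 8 of the 29 tested on this list were over 4-fold below (median difference -1.47, and 0.40 from the mean of the other 4 subtypes), among them Cxcl12 (92.9 and 96.4 CPM against 1244 and 1051 CPM), Igfbp4 and Igfbp5. The lymphatic growth factor Vegfd was at 424 and 740 CPM, against 221 and 244 CPM in adventitial fibroblasts.

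The 10 leading alveolar-low genes joined Pdgfrb with Tm4sf1, Cldn1, Myc, Fry, Clip3, Stom, Tgfbi, Crip1 and Mn1. Tgfbi, a matrix adhesion protein, was at 2.90 and 0 CPM, against 850 and 470 CPM in adventitial fibroblasts. Myc, a growth-promoting transcription factor, was at 0.20 and 0 CPM, and the other 8 libraries held 10.2 to 1597 CPM. Myc is also induced by cell handling, and the 18 immediate early genes together stood at 21250 and 7271 CPM in alveolar fibroblasts, against 5938 to 68020 CPM in the other subtypes. Their part in the Myc difference was not tested.

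Of the 29 genes tested on the list of transcription factors, none was alveolar-high or alveolar-low (list median 0.44). Myc is not on that list, nor are other transcription factors that met the rules, named after their values were seen. Snai2 (185 and 391 CPM), Maf (106 and 135 CPM) and Hey1 (17.8 and 37.1 CPM) were alveolar-high, and Klf7 (39.8 and 55.2 CPM) was alveolar-low. Tbx4 (139 and 87.0 CPM) and Foxf2 (126 and 156 CPM), both of lung mesenchyme, were over 4-fold above adventitial fibroblasts and higher still in pericytes. Klf4, Ebf1 and Ebf2 were over 4-fold below adventitial fibroblasts, with Klf4 at 41.8 and 13.8 CPM against 411 and 421 CPM. Meox2 reached 288 and 222 CPM, against 148 and 96.3 CPM in adventitial fibroblasts.

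Against adventitial fibroblasts alone, 246 genes were at least 4-fold higher in both mice (1.7%) and 316 at least 4-fold lower (2.19%), with a minimum of 10 CPM in the higher subtype. The female mouse alone gave 443 and 498 such genes and the male mouse alone 1254 and 1424, and with a pseudocount of 5 in place of 1 CPM the lower genes numbered 201. Of the 246, 106 were also alveolar-high. Across all 14437 genes, alveolar fibroblasts resembled adventitial fibroblasts more than any of the other 3 subtypes, with a Pearson correlation of log levels across genes of 0.857 in the female and 0.762 in the male mouse, although genes are not independent replicates. The alveolar libraries of both mice correlated at 0.854.

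Upk1b, Scn3a, Adrb3, Slc7a10, Mapt, Cass4, Chst3 and Scube2 led the higher genes. Mapt, the microtubule-binding tau, was at 230.2 and 124 CPM, against 0.60 and 0.95 CPM, but was higher in pericytes (540 and 371 CPM). Chst3, a chondroitin sulfotransferase, was at 106 and 57.8 CPM, against 0.032 and 0 CPM.

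Pi16, Scara5, Ly6a, Scara3, Tgfbi, Dcn, Ackr3 and Cpe led the lower genes. Pi16, a marker of adventitial fibroblasts, was at 0.095 and 0.018 CPM, against 781 and 555 CPM, and Scara5, a ferritin receptor, at 0.044 and 0.073 CPM against 562 and 502 CPM. Of 16 adventitial markers, 11 were over 4-fold lower in alveolar fibroblasts, and together they came to 1613 and 3271 CPM there and to 25060 and 35640 CPM in adventitial fibroblasts.

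**Figure D4:**
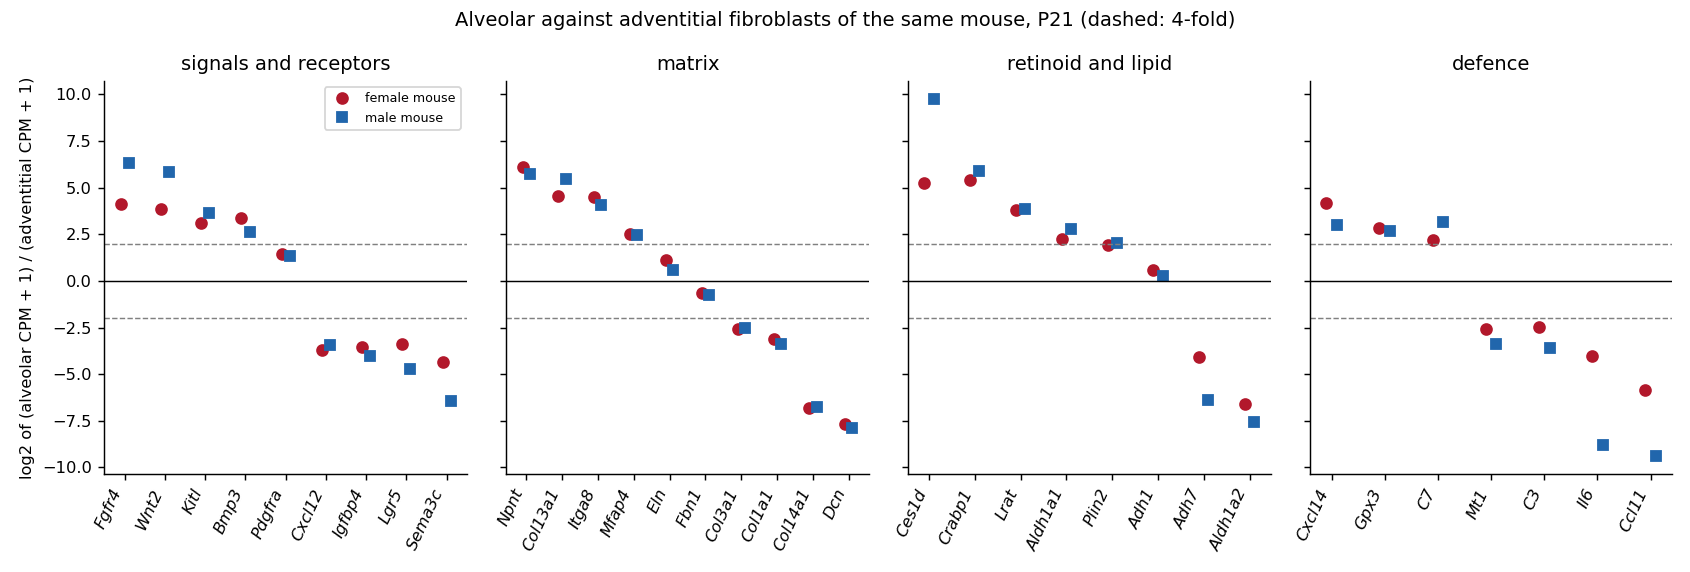
Log2 ratio of the alveolar to the adventitial level (each CPM + 1) in the same mouse at P21, for genes of 4 functional groups. The dashed lines mark 4-fold. Npnt, Itga8 and Lrat lie above the upper line and Dcn, Col1a1 and Aldh1a2 below the lower line in both mice, while Eln, Fbn1 and Adh1 lie between the lines.

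Fibrillar collagens were among the genes lower than in adventitial fibroblasts. Col1a1 was at 1938 and 1681 CPM in alveolar and 16760 and 17450 CPM in adventitial fibroblasts, a log2 difference of -3.25 (SE 0.29). Col1a2 (1919 and 2540 CPM) and Col3a1 (2869 and 3618 CPM) lay below by -2.65 (SE 0.22) and -2.56 (SE 0.19). Of the 7 fibrillar collagens, 0 were alveolar-high, and the median difference from adventitial fibroblasts was -2.09, beside -0.07 over all genes.

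Among the proteoglycans the differences were uneven (median -1.16 from adventitial fibroblasts). Dcn, decorin, which binds collagen fibrils, was at 46.5 and 54.5 CPM in alveolar and 9722 and 13360 CPM in adventitial fibroblasts, and had a read in 16.0% and 4.35% of alveolar cells. Lum, lumican, was at 14.6 and 0.037 CPM, against 1679 and 1595 CPM. Of 13 proteoglycan genes tested, 4 were over 4-fold below adventitial fibroblasts (Dcn, Lum, Podn and Gpc6), 1 was alveolar-low (Aspn) and 0 were alveolar-high. Ogn, osteoglycin, and Prelp lay the other way at 2416 and 3363 CPM and 1794 and 1394 CPM, above the adventitial 1250.0 and 1614 CPM and 364 and 356 CPM.

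The median differences from adventitial fibroblasts were 0.09 for the basement membrane list and -0.42 for the elastic fibre list. Npnt, its receptor chain Itga8 (578 and 1014 CPM) and the laminin chain Lama5 (69.8 and 218 CPM) were the 3 alveolar-high genes of 22 in the basement membrane list (median 0.92). Eln, elastin, was at 4480 and 4116 CPM, above adventitial fibroblasts at 2059 and 2761 CPM and close to vascular smooth muscle at 4262 and 5343 CPM. Mfap4 was the only alveolar-high gene of the 17 in the elastic fibre list (15190 and 24210 CPM), and Fbln1 and Fbln2 were over 4-fold below adventitial fibroblasts. Among 11 other collagens, Col13a1 was alveolar-high, and Col14a1 was at 7.62 and 10.9 CPM, against 952 and 1271 CPM.

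In the complement and cytokine list, 2 of 20 genes were alveolar-high (median 0.88). C7, a component of the membrane attack complex, was at 440.0 and 695 CPM, against 96.8 and 77.5 CPM in adventitial fibroblasts. The chemokine Cxcl14 was at 470 and 444 CPM, and its next highest value was 222 CPM in female pericytes. Below adventitial fibroblasts by over 4-fold were C3 (242 and 124 CPM against 1353 and 1499 CPM), Il33, Il6, Cxcl1, Ccl7 and Ccl11. None of the 20 oxidant defence genes was alveolar-high (median 0.63), but Gpx3, a secreted glutathione peroxidase, was at 6621 and 8596 CPM, against 918 and 1368 CPM in adventitial fibroblasts, and the metallothioneins Mt1 and Mt2 were over 4-fold lower than there.

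Markers of other cells were sparse in alveolar libraries. The 12 epithelial markers summed to 61.0 and 35.3 CPM, the 10 endothelial to 22.7 and 47.8 CPM, the 6 mesothelial to 0.91 and 0.58 CPM and the 5 erythroid to 1.10 and 0.18 CPM. In the other subtypes the epithelial sum was 5.71 to 16.9 CPM in the female and 31.8 to 43.8 CPM in the male mouse. The female alveolar sum was thus the highest of its mouse. Of the 5 epithelial markers tested, 1, Ager, was over 4-fold above adventitial fibroblasts in both mice. The source of these reads was not tested. Endothelial sums in the other subtypes were 30.6 to 416 CPM. Contractile genes were low but not absent. Of the 12 airway smooth muscle markers, 2, Tagln and Des, were over 4-fold above adventitial fibroblasts in both mice, and 0 were over 4-fold below. The 11 vascular smooth muscle markers summed to 781 and 1293 CPM, against 18920 and 26410 CPM in vascular smooth muscle. Most of the alveolar sum came from the alveolar-high integrin chain Itga8. The 10 myofibroblast markers summed to 1558 and 1941 CPM, most of it from Pdgfra. Their sum was 2177 and 2536 CPM in adventitial fibroblasts and 12850 and 18190 CPM in airway smooth muscle. The 12 airway smooth muscle markers summed to 286 and 395 CPM, against 7880 and 8886 CPM in airway smooth muscle, and the 13 pericyte markers to 281 and 273 CPM, against 30160 and 29180 CPM in pericytes. The 20 cell division genes summed to 66.1 and 81.9 CPM.

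Some genes reached a fair level in the sum through a few cells. Acta2, smooth muscle actin, was at 54.9 and 139 CPM but reached 10 CPM in 23 of 181 female and 5 of 69 male alveolar cells, and 1 cell gave 92.2% of the male reads. Mmp3, a matrix metalloproteinase, was at 88.5 and 606 CPM and reached 10 CPM in 21 and 10 cells, the highest of which held 12230 and 7362 CPM. Wisp1, Gne, Cdkn1a, Plcxd3, Asl and F830016B08Rik shared this pattern, with 3 to 27 cells at 10 CPM in a mouse and 17.3% to 93.3% of the reads in 1 cell. No doublet caller was run, and the part of mixed wells in these cells was not tested.

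The 2 plates of each mouse can be set side by side. In the female mouse Npnt was at 3727 and 3852 CPM on its 2 plates and Upk1b at 702 and 703 CPM. In the male mouse Npnt was at 3019 and 2238 CPM, Upk1b at 790.1 and 1081 CPM, and Pdgfra at 1230.0 and 556 CPM. Alveolar fibroblasts made up 33.1% and 36.2% of female and 26.6% and 18.8% of male cells of the mesenchymal sort on these plates.

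Age is a label of the mouse, was not drawn from expression, and was tested. The cells that entered at each age were picked by the authors' subtype names, which were drawn from expression. No cell outside P21 carries the label Alveolar fibroblast, and 6 cells at P21 carry the label Early alveolar fibroblast. A change with age therefore cannot be told apart from a difference between these labels. Reads of early and later alveolar fibroblasts were joined per mouse in all 10 mice (14 to 392 cells each) and P21 was compared with P7 in normal air in edgeR (quasi-likelihood test, sex as a covariate, Benjamini-Hochberg adjustment over 15655 genes). At an adjusted p under 0.05, 10 genes rose (0.0639%) and 1 fell (0.00639%), and 1113 genes had an unadjusted p under 0.05. The balance of directions depended on the fit: DESeq2 called 586 higher and 456 lower, and edgeR on the 4 mice of P7 and P21 alone 108 higher and 20 lower. CPM here are scaled over these 10 libraries and so differ somewhat from those above. Each group holds 1 female and 1 male mouse. With the term for sex, the p-values therefore rest on how the female-male difference varies between the groups. In every group, that of hyperoxia included, that difference also goes with the sequencing run. The labels do not say that the mice were littermates.

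Pdgfra rose from 22.7 and 30.8 CPM at P7 to 1090.0 and 1198 CPM at P21, a log2 change of 5.43 (SE 0.52, adjusted p = 0.034). It is 1 of the 5 markers known from the cell type and was the only alveolar-high gene among the 11. Its P21 level also lay above E18.5 (85.6 and 90.6 CPM), P1 (65.8 and 44.2 CPM) and P7 in hyperoxia (31.4 and 20.5 CPM). Of the genes of the extracellular matrix, 3 passed the test. Eln went from 636 and 437 CPM to 5011 and 4789 CPM (log2 change 3.21, SE 0.35), Mgp by 2.92 (SE 0.35), and Efemp1, a fibulin, from 3.38 and 1.55 CPM to 658 and 721 CPM (8.28, SE 0.89). Other matrix genes did not pass, among them Col1a1, at 2812 and 1805 CPM at P7 and 2167 and 1973 CPM at P21 (-0.14, SE 0.33), and Fbln5, at 1913 and 1132 CPM and then 344 and 732 CPM (-1.41, SE 0.63).

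Other genes that rose act in oxidant defence, lipid carriage, drug metabolism and actin turnover. Gpx3 went from 693 and 574 CPM to 7405 and 9819 CPM (3.75, SE 0.41) and Sod3, extracellular superoxide dismutase, from 168 and 134 CPM to 2762 and 4418 CPM (4.54, SE 0.45). Apoe, a lipid carrier, rose by 2.90 (SE 0.30), the flavin monooxygenase Fmo2 by 3.74 (SE 0.33) and the actin-severing Gsn by 3.65 (SE 0.44). Mest, an imprinted gene of growing tissue, fell from 138 and 128 CPM to 0.50 and 0.12 CPM, a log2 change of -8.87 (SE 0.84). Adjusted p lay between 0.034 and 0.049 for all 11, and in each of them both P21 mice lay beyond both P7 mice.

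Leaving out any 1 mouse of P1, P7, P21 or P7 in hyperoxia left 0 calls, with 583 to 1442 genes at an unadjusted p under 0.05, and leaving out the female or male E18.5 mouse, whose libraries held 14 and 24 cells, left 161 (102 higher, 59 lower) and 157 (104 higher, 53 lower). All male libraries of normal air came from 1 sequencing run, while the female libraries of P7 and P21 came from different runs.

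**Figure D5:**
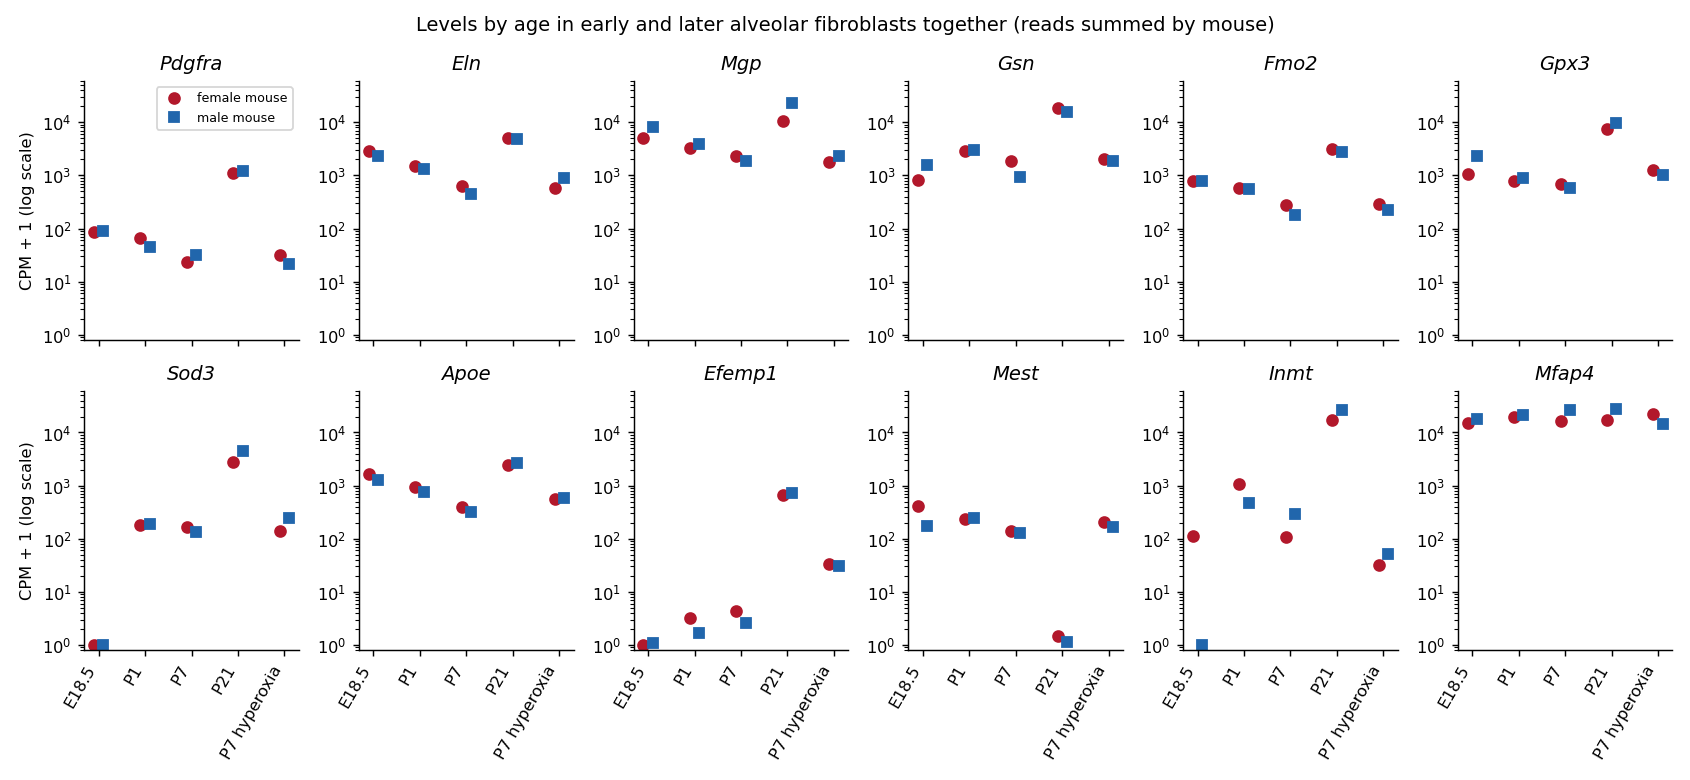
Level (CPM + 1, log scale) of 10 of the 11 genes called between P7 and P21, and of Inmt and Mfap4 for comparison, in early and later alveolar fibroblasts together, 1 point per mouse in each of the 5 groups. For the 9 genes shown that rose, both P21 points lie above both P7 points, for Mest they lie below, and Mfap4 is at 14320 to 27580 CPM in all groups.

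The alveolar-high genes were chosen on the P21 libraries that also enter the age comparison, so their direction with age is given as a description only. Of the 182, 33 were at least 4-fold higher in both P21 mice than in both P7 mice and 2 at least 4-fold lower, where all genes gave 1.66% and 1.03%. Inmt was at 105 and 297 CPM at P7 and at 17260 and 26770 CPM at P21, with 1065 and 462 CPM at P1. Its log2 change was 6.74 (SE 2.26), and it missed the threshold (adjusted p = 0.59, edgeR). Lrat (24.8 and 7.59 CPM at P7, 238 and 1309 CPM at P21) and Scn3a (7.00 and 12.0 CPM, 324 and 613 CPM) also lay apart without passing the test (adjusted p = 0.39 and 0.16, edgeR).

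For other markers of the class the values at P7 and P21 were as follows, and none passed the test. Wnt2 was at 489 and 524 CPM at P7 and 266 and 472 CPM at P21, and Mfap4 at 16460 and 26930 CPM and 16990 and 27580 CPM. Tcf21 was at 1165 and 345 CPM at P7 and 569 and 272 CPM at P21. Npnt was at 1149 and 1303 CPM and then at 4056 and 3361 CPM, a log2 change of 1.63 (SE 0.34, adjusted p = 0.29, edgeR).

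Whether the age change differed between alveolar and adventitial fibroblasts was asked with an interaction term, in a fit blocked on the mouse. Of 16419 genes, 0 passed an adjusted p of 0.05 with edgeR, 691 had an unadjusted p under 0.05, and DESeq2 called 484. For Pdgfra the alveolar change exceeded the adventitial one by a log2 of 3.87 (SE 0.52, adjusted p = 0.15, edgeR) and for Eln by 3.72 (SE 0.45, adjusted p = 0.15, edgeR), while for Gsn the difference was 0.41 (SE 0.29).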

How the data were processed

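Single cells of distal lung from 10 mice were measured. The deposited values are raw read counts per gene and cell, and the authors' subtype, mouse, sex, age and sequencing run came from the labels. Per the submitters' processing notes the tools were STAR 2.5.2b and HTSeq 0.10, with the build name GRCh38, which is a human one, and the strand setting is not given in the sources used here. The table held 18072 genes and the labels mention no molecular identifiers, which means that copied reads count separately. Genes with near-identical copies, such as Ly6a, and overlapping genes are uncertain. Of 5480 count columns 62 were not used, cells of the CD31 and CD45 sorts of other ages, while 9 such cells at P21 were kept, 2 of them alveolar fibroblasts.

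For each mouse and subtype with at least 10 cells the counts of its cells were added up and fitted with edgeR 4.0.16 in R 4.3.3 (TMM, filterByExpr, quasi-likelihood). The P21 fit held 10 libraries with the mouse as a block (4 residual degrees of freedom) and gave log2 differences and standard errors. The same animals gave every subtype, and the female-minus-male deviations of any 2 subtypes correlated across genes at 0.030 to 0.15 over the 10 pairs. The age fit held 10 libraries with a term for sex (4 residual degrees of freedom), and the interaction fit 20 libraries with the mouse as a block (5). DESeq2 1.42.0 was an alternative, in which genes whose fit did not converge were left out. The scripts were tested on simulated data, with 100 genes changed 4-fold and 100 changed 64-fold. At an adjusted p under 0.05 in edgeR, the age fit recovered 0% and 33% of them, and the interaction fit 0% and 15%. A gene that did not pass in these fits can therefore still have changed. Exon lengths came from GENCODE M21.

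Named genes were the 20 alveolar-high genes with the largest smallest fold over subtypes and mice, the 10 alveolar-low genes by the same measure, 8 genes in each direction against adventitial fibroblasts, the age calls, the 8 genes of at least 50 CPM in both mice with the lowest share of cells at 10 CPM, and members of the 28 lists (417 genes). Other named genes, such as Mgp by its level and CT010467.1, were chosen after their values were seen. Some genes that the rule names are not reported here. The members and lists were chosen with earlier results of these data known.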

Additional observations from a re-analysis of the deposited data

How the results depend on the processing

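The P21 counts were recomputed with total reads or DESeq2 size factors for scaling, with the mean of each cell's own CPM, without the cells of the CD31 and CD45 sorts, with a pseudocount of 5 CPM, with no minimum level, on 1 mouse at a time, and, chosen after seeing the data, on cells with at least 1000 genes. The alveolar-high count of 182 lay between 164 and 257 in these settings other than single mice, and the scaling by DESeq2 size factors shared 174 of the 182 genes. With the mean of each cell's own CPM, 143 were shared. On single mice it was 387 to 869, since 1 mouse then meets the rule alone. The alveolar-low count of 30 was 109 to 388 on single mice and 69 with no minimum level. Against adventitial fibroblasts, the 246 higher genes became 443 to 1254 on single mice, and the 316 lower genes 498 to 1424, or 201 with a pseudocount of 5 CPM. For the 42 genes with a usable SE whose log2 difference from the mean of the other subtypes was refitted, the fit with no replicate block, no filter on low counts and, added after seeing the data, 2 other scalings and the CD31 and CD45 cells left out moved none by more than its SE, and DESeq2 with the mouse as a block moved 1, Lrat, from 12.23 to 11.32.

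The age comparison depended on the setting. DESeq2 called 1042 genes in place of 11, among them all 11, the 4 mice of P7 and P21 alone gave 128, the fit with no term for sex 25, and leaving out each mouse in turn 0 to 161. DESeq2 size factors in edgeR gave 9, and no filter on low counts or the cells with the named label of each age alone gave 11. For the interaction, DESeq2 called 484, the 4 mice alone gave 11 and leaving out each mouse in turn gave 0 to 50. The cause of these differences was not tested. With 2 mice a group, and 14 and 24 alveolar cells at E18.5, the precision of the age changes is limited.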

Other observations

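A few alveolar-high genes at P21 outside the naming rule, chosen after their values were seen, add to the groups above. G0s2, an inhibitor of triglyceride lipolysis, was at 1235 CPM in the female and 1609 CPM in the male alveolar library, against 163 and 127 CPM in adventitial fibroblasts and 342 and 443 CPM in pericytes. Beside Adrb3, another receptor for catecholamines was alveolar-high. Adra1a, an alpha-1 receptor, was at 131 and 133 CPM and did not exceed 30.5 CPM elsewhere. It had a read in 57.5% and 30.4% of alveolar cells.

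Adhesion and iron genes were also among the 182. Fn1, fibronectin, was at 2190 and 2922 CPM, against 631 and 813 CPM in adventitial fibroblasts. Vcam1, an adhesion ligand of leukocyte integrins, was at 849 and 800 CPM, against 369.5 and 248 CPM. Trf, transferrin, was at 57.8 and 71.6 CPM, and at most 5.46 CPM in any other library.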
